A study of Taeniopygia guttata with 2 samples.

Results

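SOX10, CHGA, TH, STMN2 and TAGLN3 are 5 of the 20511 genes counted in single cells of the embryonic zebra finch gonad, chosen by symbol because they mark the neural crest and the catecholamine cells and neurons that arise from it. All 5 were found in the gene table (SOX10, ENSTGUG00000010468; CHGA, ENSTGUG00000012606; TH, ENSTGUG00000009295; STMN2, ENSTGUG00000011625; TAGLN3, ENSTGUG00000013594). Their symbols alone select them in the files, and no threshold on a measured value is used. The gonads came from zebra finch embryos (Taeniopygia guttata, strain not given) at Hamburger and Hamilton (HH) stage 28, with no treatment named. Those of 7 embryos of 1 sex were pooled, dissociated with trypsin and run as 1 droplet library, which gave 1 female and 1 male library. The embryos of a pool cannot be separated, so no difference between the sexes was tested, and the intervals given here cover counting error only.

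The neural crest is a migratory population of the vertebrate embryo. SOX10, a transcription factor, is carried by migrating crest cells and kept by the glial lineage, whereas sympathetic neurons and the chromaffin cells of the adrenal medulla turn on the machinery that makes, packs and releases catecholamines. TH (tyrosine hydroxylase) performs the rate-limiting step from tyrosine towards dopamine and noradrenaline, and CHGA (chromogranin A) is a core protein of the dense granules that store them. STMN2 (stathmin 2) regulates microtubules in growing axons, and TAGLN3 (transgelin 3) is an actin-binding protein of neurons. In birds the adrenal glands develop beside the gonads.

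The female library held 98701138 and the male library 124217899 unique molecular identifiers (UMIs, counts of captured RNA molecules). Barcodes with at least 2000 UMIs were kept as cells, 7593 female and 9461 male, with median depths of 9126 and 9027 UMIs. The libraries shared 18 of these barcode sequences. Over the cells, the testis genes SOX9 and DMRT1 stood at 129 and 145 CPM (counts per 1000000 UMIs) in the male library and at 46.5 and 40.8 CPM in the female one, and CYP19A1 (aromatase) at 0.449 and 7.58 CPM. The cells were clustered with the 5 genes left out, and the 22 clusters were named from marker lists, among them germ cell, epithelial, interstitial, supporting, steroidogenic, endothelial and blood clusters. Clusters 5, 6, 17 and 18 stayed unnamed. Cluster 5 was almost wholly male, with 8 female and 1318 male cells, and cluster 7, a steroidogenic cluster, almost wholly female, with 981 and 52.

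A single cluster carried the genes of crest derivatives. It held 186 cells, 112 female and 74 male, with a median of 14958.5 UMIs. Of the marker genes found in the files, 8 of 9 catecholamine markers, 6 of 9 neuron markers and 6 of 7 neural crest or glial markers were raised in it at least 1.5-fold, which describes the clustering and was not tested. This cluster is called the neural cluster here. Its share was 1.48% (95% exact binomial interval 1.22 to 1.77%) in the female library, against 0.782% (0.615 to 0.981%) in the male. Whether the shares differ between the sexes, between dissections or between cell captures cannot be told apart with 1 library of each sex.

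SOX10 stood at 166 CPM in the neural cluster of the female library (95% exact Poisson interval 147 to 186) and at 186 CPM in that of the male library (161 to 215). Outside the neural cluster it was at 0.209 CPM (female) and 0.465 CPM (male). Of all 539 SOX10 UMIs in cells, 88.9% lay in the neural cluster, which held 1.09% of the cells. The intervals of both libraries overlapped inside the cluster, and the level outside it was below that of the free RNA in near-empty barcodes of at most 100 UMIs (2.97 CPM female, 1.96 CPM male).

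CHGA stood at 3688 CPM in the neural cluster of the female library (3598 to 3779) and at 3182 CPM in that of the male library (3074 to 3293). Outside it was at 5.32 and 1.94 CPM, and 94.2% of its UMIs lay in the neural cluster. Free CHGA RNA was at 117 CPM in the near-empty female barcodes and 37.2 CPM in the male ones, above the level in cells outside the neural cluster in either library. Single cells outside it held up to 33 CHGA UMIs, and 10 held at least 3. The part of free RNA in the CHGA level elsewhere was not tested.

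TH stood at 1399 CPM in the female neural cluster (1344 to 1456) and at 1775 CPM in the male one (1695 to 1858). TH was thus the higher in the male library and CHGA the higher in the female library, each beyond counting error, but with 1 pool per sex the spread between pools is unknown. The intervals also leave out the spread between cells. The highest male cell held 269 of the 1828 TH UMIs of the male neural cluster. Outside the neural cluster TH was at 12.6 CPM (female) and 8.24 CPM (male), and 70.9% of its UMIs lay inside.

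STMN2 stood at 1515 CPM in the female neural cluster (1458 to 1574) and at 1577 CPM in the male one (1501 to 1656), against 7.42 and 8.76 CPM outside. TAGLN3 stood at 380 CPM (352 to 411) and 370 CPM (334 to 409), against 9.72 and 9.41 CPM outside. For both genes the intervals of the libraries overlapped inside the neural cluster. The cluster held 75.2% of the STMN2 UMIs but 38.8% of the TAGLN3 UMIs, which makes TAGLN3 the least confined of the 5 genes by this share in these libraries.

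**Figure D1:**
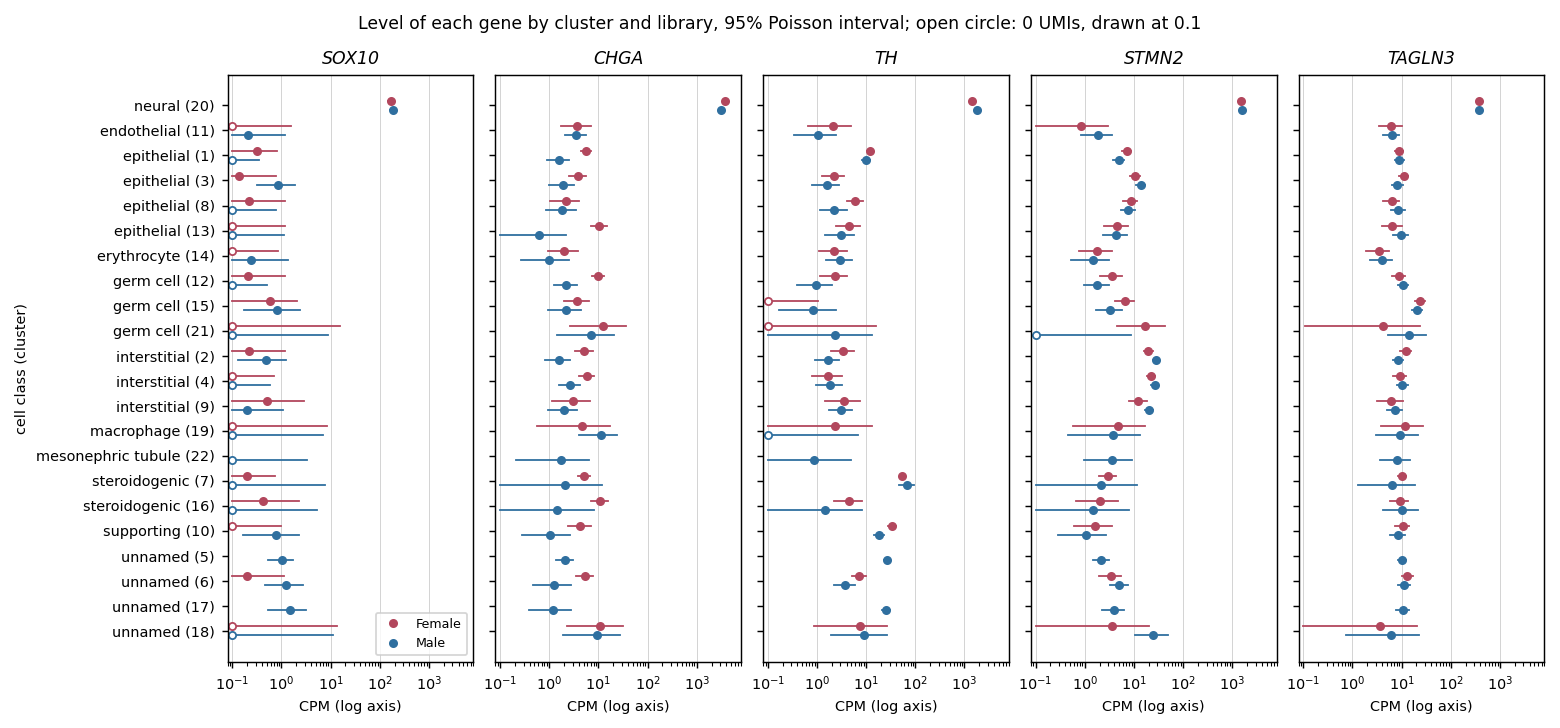
Level of each of the 5 genes by cluster and library, in CPM on a log axis, with 95% exact Poisson intervals for counting error; open circles drawn at 0.1 mark sums with no UMI, and sums of fewer than 10 cells are left out. All 5 genes peak in the neural cluster. TH has a lower second level in steroidogenic cluster 7, followed by supporting cluster 10 (female) and by clusters 5, 17 and 10 (male). STMN2 has its second level in the interstitial clusters.

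Within the neural cluster each gene was detected in about the same share of cells, but not in the same cells. At least 1 UMI of SOX10 was found in 44.6% (female) and 48.6% (male) of neural cells, of CHGA in 45.5% and 47.3%, and of TH in 48.2% and 43.2%. STMN2 was found in 51.8% and 43.2%, and TAGLN3 in 58.0% and 51.4%.

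Cells were classed as SOX10 cells where they held at least 2 SOX10 UMIs and fewer than 3 UMIs of CHGA and TH together, and as CHGA/TH cells where they held at least 3 UMIs of CHGA and TH together and fewer than 2 of SOX10. No cell of 17054 met both UMI minimums. In the neural cluster 75 cells were SOX10 cells (43 female, 32 male) and 85 were CHGA/TH cells (51 female, 34 male). None of the 75 cells with at least 2 SOX10 UMIs reached 3 UMIs of CHGA and TH, which allows a share of up to 4% by 3 counts and 4.80% by the exact binomial interval. Among the 111 neural cells with fewer than 2 SOX10 UMIs the share was 76.6% (67.6 to 84.1%), with 73.9% among female and 81.0% among male cells. The intervals do not overlap in either library.

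Counts below these minimums gave the following. Of the 78 SOX10 cells in all clusters, 3 had any UMI of CHGA or TH and none had more than 1. No CHGA/TH cell of 271 had a single SOX10 UMI, which allows a share of up to 1.11%. That limit is above the 0.839% of all cells with a SOX10 UMI and the 0.338% of those outside the neural cluster, so the counts over all clusters show no separation beyond the rarity of SOX10, and the comparison rests on the neural cluster. By detection of at least 1 UMI, 86 neural cells had SOX10, 86 had CHGA and 86 had TH. SOX10 and CHGA met in 2 cells and SOX10 and TH in 2 cells, whereas CHGA and TH met in 80 cells, 93.0% of the cells with CHGA and 93.0% of those with TH. When every cell was thinned to 2000 UMIs, 40 neural cells kept SOX10 and 1 of them also had CHGA. Among shallower barcodes of at least 1000 but under 2000 UMIs, which were not kept as cells, 1 had at least 2 SOX10 UMIs, 12 female and 5 male ones had at least 3 of CHGA and TH, and 0 had both.

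**Figure D2:**
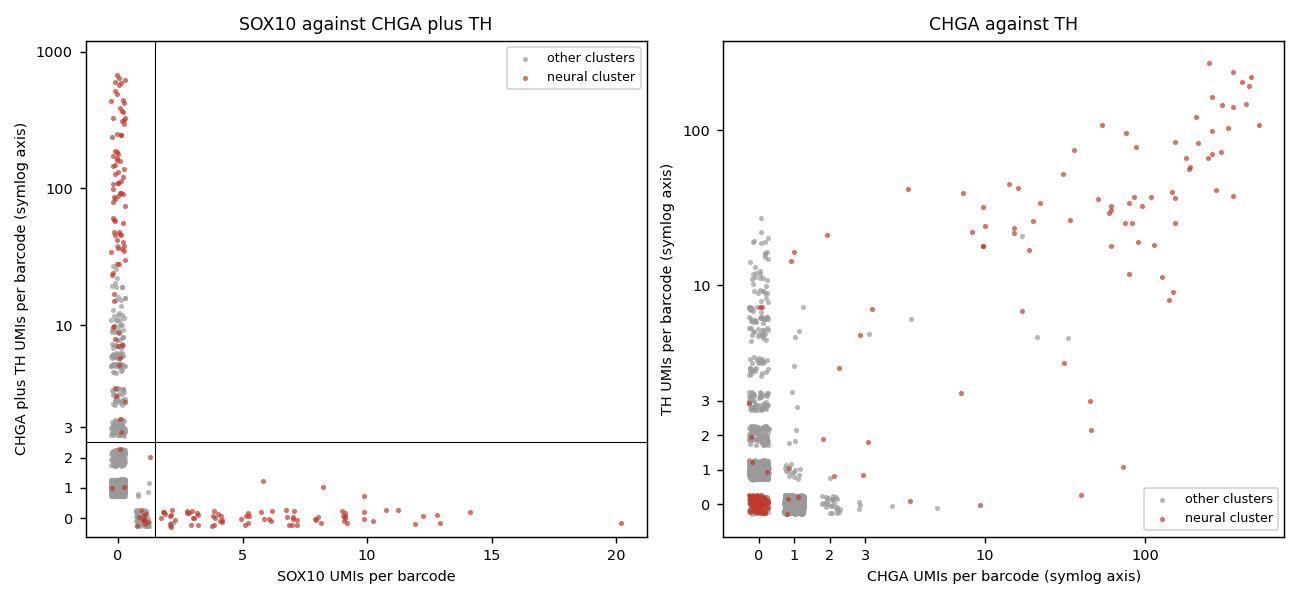
UMIs per cell of SOX10 against CHGA plus TH (left, lines at the class minimums of 2 and 3 UMIs) and of CHGA against TH (right), neural cluster in red and other cells in grey. No cell lies above both lines on the left, while CHGA and TH rise together on the right and a set of grey cells holds TH with almost no CHGA.

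SOX10 UMIs were few per cell and similar in the libraries. In the SOX10 cells of the neural cluster the lowest SOX10 count was 2, the median was 6 in female and 5 in male cells, and the highest was 20 and 13. CHGA counts spread much wider. In the 46 female neural cells with at least 3 CHGA UMIs the median was 89 and the highest 458, and in the 30 male ones the median was 52.5 and the highest 510. TH had medians of 33 and 36.5 UMIs in these cells with highest counts of 220 and 269, STMN2 had medians of 27 and 32.5 UMIs, and TAGLN3 of 12.5 and 11.

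CHGA and TH varied together over these cells, with a Spearman correlation of 0.725 over the 46 female and 0.647 over the 30 male cells. CHGA and STMN2 had correlations of -0.31 and -0.21 in the same cells. These correlations describe the cells of 1 library each, which share their capture and differ in depth, and no p is given.

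A few combinations of genes held most of the neural cells. With at least 2 UMIs of SOX10 or at least 3 of another gene counted as present, 75 of the 186 neural cells had SOX10 alone of the 5 genes, 63 had CHGA, TH, STMN2 and TAGLN3 together, and 21 had none. A further 5 cells had TH, STMN2 and TAGLN3 without CHGA, 4 had CHGA, TH and STMN2 without TAGLN3, and 4 had TAGLN3 alone. Both libraries held the leading combinations, with 43 female and 32 male cells of SOX10 alone and 38 and 25 of the combination of the other 4 genes. STMN2 and TAGLN3 thus went with the catecholamine genes and not with SOX10 at these minimums.

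Fewer than 2 SOX10 and fewer than 3 CHGA UMIs were found in 35 neural cells (23 female, 12 male), of which 7 had at least 3 TH UMIs. The CHGA/TH class counts CHGA and TH together, so it takes these 7 and a few more of the 35. It held 85 neural cells, against 76 with at least 3 CHGA UMIs. As a sum over both libraries the 35 cells held STMN2 at 1235 CPM, TH at 195 CPM and CHGA at 29.6 CPM. The STMN2 sum came from few cells, with a median of 0 UMIs, 13 of 35 cells with a UMI and 209 UMIs in the highest cell. PHOX2A, a transcription factor of autonomic neurons, stood at 266 CPM (female) and 111 CPM (male) in this set, and GAP43, a growth cone protein, at 391 and 829 CPM. SOX10 was found as a single UMI in 11 of the 35 cells.

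The share of SOX10 cells was 0.566% in the female library (43 cells, 0.410 to 0.762%) and 0.370% in the male (35 cells, 0.258 to 0.514%), with overlapping intervals. All 43 female SOX10 cells lay in the neural cluster. In the male library 32 did, and the other 3 lay in interstitial cluster 2 and the unnamed clusters 6 and 17. That of CHGA/TH cells was 2.11% (160 cells, 1.80 to 2.46%) and 1.17% (111 cells, 0.966 to 1.41%). Only 85 of these 271 cells lay in the neural cluster, and 186 lay outside it. CHGA alone was closer to the cluster, with 76 of the 86 cells of at least 3 CHGA UMIs inside, so the CHGA/TH cells outside were mostly cells with TH.

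The other genes of SOX10 cells and CHGA/TH cells were compared on sums of UMIs per library and class, with edgeR's quasi-likelihood test, the female and the male library as replicates, the 5 genes left out, and calls made at an adjusted p (Benjamini-Hochberg) of at most 0.05. The comparison asks which crest, catecholamine and neuronal genes go with SOX10 and which with CHGA and TH. Since most CHGA/TH cells lay outside the neural cluster, it was repeated with both classes taken from the neural cluster alone, a comparison chosen after seeing the data. Over all clusters 8933 genes were tested, of which 799 (8.94%) were higher in SOX10 cells and 1004 (11.2%) in CHGA/TH cells. Library size in place of TMM scaling gave 586 and 1320 and moved the median log2 difference of all genes from -0.02 to -0.21. Within the neural cluster 7380 genes were tested, of which 1072 (14.5%) were higher in SOX10 cells and 1281 (17.4%) in CHGA/TH cells. Of the 799 and the 1004 genes called over all clusters, 752 and 741 were also tested within the neural cluster. In SOX10 cells 586 were called in both comparisons (73.3% of 799 and 54.7% of 1072). In CHGA/TH cells 582 were (58.0% of 1004 and 45.4% of 1281). The shares of 799 and 1004 count genes not tested within the neural cluster as not called there. Called in the opposite direction within the neural cluster were 1 of the 799 and 11 of the 1004. The TH cells of other clusters belong to the CHGA/TH class of the first comparison only, and their part in its calls was not tested apart from this repeat.

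Genes of crest and glia went with SOX10. Of the 15 tested genes of this list, 13 were higher in SOX10 cells and 2 in CHGA/TH cells, with a median log2 difference of 3.67, and within the neural cluster 12 and 2 of 14 with a median of 3.82. EDNRB, the endothelin receptor that crest cells need for migration, stood at 2545 CPM (female) and 2574 CPM (male) in SOX10 cells and at 33.9 and 33.8 CPM in the CHGA/TH cells, a log2 difference of 6.41 ± 0.16 (SE; edgeR adjusted p = 3.0e-06). SOX8, a close relative of SOX10, stood at 378 and 288 CPM against 4.42 and 3.38 CPM. These levels are sums per class and library, and the spread of these genes over single cells was not compared.

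FOXD3, an early crest factor, was found at 22.9 and 49.6 CPM in SOX10 cells and at 0 UMIs in the CHGA/TH cells of both libraries, at least 39.7-fold lower against a floor of 3 UMIs over both libraries. CDH19, a cadherin of Schwann cell precursors, was at least 32.3-fold lower by the same floor, and PAX3, a crest factor, at least 23.1-fold lower. FABP7, a lipid-binding protein of immature glia, stood at 1397 and 860 CPM against 102 and 105 CPM. CNP, a gene of myelinating glia, differed by 4.0 on the log2 scale.

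The 2 genes of the crest list on the other side were TFAP2B and GFRA3. TFAP2B, a transcription factor of crest and of sympathetic neurons, stood at 68.6 and 93.4 CPM in SOX10 cells and at 376 and 373 CPM in CHGA/TH cells (log2 difference -2.05 ± 0.18 SE). Its relative TFAP2A stood at 214 and 164 CPM against 8.36 and 2.70 CPM, on the opposite side. GFRA3, the receptor for artemin, had a log2 difference of -2.0 with an edgeR adjusted p of 0.0447.

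Genes that make and store catecholamines were, where called, higher in CHGA/TH cells. Of 10 tested, 6 were higher in CHGA/TH cells and 0 in SOX10 cells, with a median log2 difference of -4.57, and within the neural cluster 9 of 11 with a median of -6.89 (-5.97 with genes at 0 set to their bound). SLC18A2, the vesicular monoamine transporter, stood at 2.69 and 0 CPM in SOX10 cells and at 213 and 155 CPM in CHGA/TH cells. DDC, which makes dopamine from the product of TH, stood at 5.38 and 1.91 CPM against 93.9 and 109 CPM. These CHGA/TH levels are sums over all clusters. They include the TH cells outside the neural cluster, where SLC18A2 and DDC were near 0 (given below). GCH1, which makes the cofactor of TH, had a log2 difference of -6.99, and CYB561, the cytochrome that keeps vesicle ascorbate reduced, one of -7.06.

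DBH, which turns dopamine into noradrenaline, had no UMI in the SOX10 cells. It stood at 13.8 and 8.10 CPM in all CHGA/TH cells, where it was not tested, and at 37.3 and 25.1 CPM in those of the neural cluster (at least 13.4-fold higher, edgeR adjusted p = 6.3e-05). PNMT, which turns noradrenaline into adrenaline, stood at 166 and 81.4 CPM in the neural CHGA/TH cells. QDPR, which works in many tissues, was not called in either comparison.

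Granins and release proteins followed the same order, with 8 of 11 higher in CHGA/TH cells and 0 in SOX10 cells (median -2.84), and 9 of 10 within the neural cluster (median -4.26). SCG3, a granin that binds CHGA, stood at 2.69 and 7.63 CPM in SOX10 cells and at 919 and 512 CPM in CHGA/TH cells. SCG2 had no UMI in SOX10 cells and stood at 97.3 and 58.7 CPM in CHGA/TH cells, at least 34.3-fold higher. CHGB stood at 51.1 and 42 CPM against 285 and 479 CPM, a log2 difference of -2.84 ± 0.30 (SE). PCSK2, a prohormone convertase, stood at 71.8 and 71.6 CPM in the CHGA/TH cells of all clusters but at 22.6 and 10.4 CPM in those of the neural cluster, where it was not tested.

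Of 8 tested transcription factors of the sympathoadrenal lineage, 5 were higher in CHGA/TH cells and 1 in SOX10 cells. The lists share genes, so their counts are not independent. TFAP2B is in this list and in that of crest and glia, and EDNRB and GFRA3 are in the crest list and in that of receptors. PHOX2A stood at 2.69 and 0 CPM in SOX10 cells and at 373 and 298 CPM in CHGA/TH cells (log2 difference -7.47 ± 0.44 SE, edgeR adjusted p = 7.6e-05). GATA2, ISL1 and HAND2 had log2 differences of -4.97, -4.78 and -3.37. HAND1 and GATA3 were at or near 0 and were not tested.

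Neuronal cytoskeleton and axon genes had 10 of 15 higher in CHGA/TH cells and 2 in SOX10 cells (median -2.54), and 12 and 2 of 14 within the neural cluster (median -3.47). GAP43 stood at 4.03 and 1.91 CPM in SOX10 cells and at 541 and 529 CPM in CHGA/TH cells. STMN3, a relative of STMN2, had a log2 difference of -7.28, while STMN1, a broadly expressed stathmin, was called only within the neural cluster, at -0.69. The 2 genes on the SOX10 side were MAP2, at 385 and 477 CPM against 133 and 78.3 CPM, and TAGLN2, a relative of TAGLN3 that is not confined to neurons, at 1289 and 986 CPM against 409 and 414 CPM.

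Receptors of crest derivatives were divided, with 2 of 8 higher in SOX10 cells and 5 in CHGA/TH cells. GFRA1, a co-receptor for GDNF, was higher in SOX10 cells by 2.29 on the log2 scale, whereas RET, the kinase that GFRA1 and its relatives act through, was lower by 7.08. CHRNA3, the acetylcholine receptor subunit through which sympathetic and chromaffin cells are driven, had no UMI in SOX10 cells and stood at 226 and 245 CPM in CHGA/TH cells, at least 98.9-fold higher. Of the neuropeptides, GAL (galanin) and PENK (proenkephalin) were higher in CHGA/TH cells, with log2 differences of -8.31 and -4.78, and ADCYAP1 (PACAP) was higher in SOX10 cells, at 425 and 381 CPM against 5.90 and 8.10 CPM.

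Genes of dividing cells were higher in SOX10 cells for 5 of 10 and in CHGA/TH cells for 0, with a median log2 difference of 1.01. MKI67 stood at 461 and 362 CPM against 159 and 174 CPM, and TOP2A at 594 and 379 CPM against 182 and 178 CPM. Within the neural cluster 9 of 10 were higher in SOX10 cells. Of all genes, 8.94% were called in this direction over all clusters and 14.5% within the neural cluster.

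**Figure D3:**
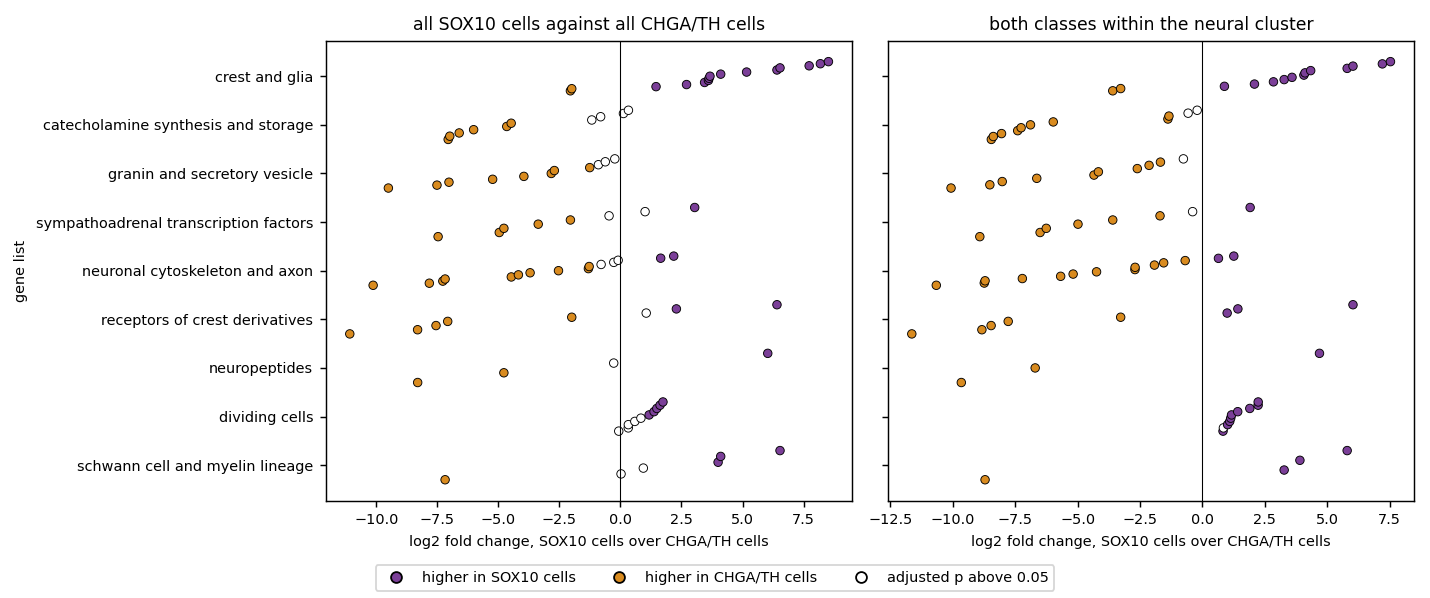
Log2 difference between SOX10 cells and CHGA/TH cells for each tested gene of 9 lists, over all clusters and within the neural cluster; purple points were higher in SOX10 cells, orange points higher in CHGA/TH cells (edgeR adjusted p of at most 0.05) and white points were not called. Crest and glia genes sit on the positive side except TFAP2B and GFRA3, called catecholamine and granin genes on the negative side, and each list's median keeps its side within the neural cluster.

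Among all genes called with at least 50 CPM in the higher class of both libraries, those with the largest differences on the SOX10 side were ENSTGUG00000008169, ASPA (aspartoacylase), ENSTGUG00000019321, VGLL3 and ENSTGUG00000002424. ENSTGUG00000002424, which the files leave without a symbol, stood at 42502 and 44189 CPM in SOX10 cells and at 354 and 170 CPM in CHGA/TH cells. On the CHGA/TH side they were CHRNA3, RTN1, ENSTGUG00000004820, DOC2B and SCG2. RTN1, a reticulon of neurons, had no UMI in SOX10 cells and stood at 144 and 97.9 CPM in CHGA/TH cells, at least 52.5-fold higher.

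The CHGA/TH cells outside the neural cluster differed from those inside in the gene that classed them. At least 3 TH UMIs with fewer than 3 CHGA UMIs were found in 172 cells outside it, 99 female and 73 male, with at most 27 TH and at most 1 CHGA UMI. Of these, 64 lay in steroidogenic cluster 7, 40 in cluster 5, 23 in epithelial cluster 1, 22 in supporting cluster 10 and 9 in cluster 17. TH stood at 52.9 CPM in the female cells of cluster 7 (48.4 to 57.6) and at 67.9 CPM in its 52 male cells (46.4 to 95.8), with overlapping intervals. Free TH RNA stood at 33.2 CPM in the near-empty female barcodes (25.7 to 42.1) and at 18.6 CPM in the male ones (13.2 to 25.5), below cluster 7 in both libraries. TH stood at 33.1 and 18.6 CPM in supporting cluster 10, the level of the near-empty barcodes in both libraries, at 26.2 CPM in the male cells of cluster 5 and at 25.7 CPM in those of cluster 17. Steroidogenic cluster 16 was far lower, at 4.54 and 1.46 CPM.

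Endothelial cells, which should lack TH, held it at 2.07 and 1.04 CPM. A TH UMI was found in 15.9% (female) and 13.5% (male) of the cells of cluster 7 but in 2.33% and 1.19% of endothelial cells, with median depths of 9481 and 8397 UMIs against 10714 and 10554. With every cell thinned to 2000 UMIs the shares were 6.63% and 5.77% against 0.930% and 0%. In the near-empty barcodes there were 0.284 (female) and 0.5 (male) TH UMIs for each CHGA UMI. In cluster 7 there were 521 TH and 51 CHGA UMIs in the female library, a ratio of 10.2, and 32 and 1 in the male. The share of cells with TH in cluster 7 was above the endothelial share in both libraries, although the male interval after thinning was wide (1.21 to 15.9%). The male ratio of cluster 7 rests on 1 CHGA UMI. In cluster 10 the ratio was 7.69 (female) and 17.8 (male), over 16 and 4 CHGA UMIs. It was 12.5 in the male cells of cluster 5 and 21.2 in those of cluster 17. A TH UMI was found in 13.7% and 9.38% of the cells of cluster 10. The part of free RNA in the TH level of these clusters was not tested.

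Of the other catecholamine genes, DDC, SLC18A2 and DBH were near 0 in these 172 cells, but PNMT was not in the male library. DDC stood at 2.58 CPM (female) and 1.06 CPM (male), SLC18A2 at 2.58 and 0, PHOX2A at 3.44 and 2.12, and DBH at 0 in both. The steroidogenic gene CYP17A1, which makes androgen precursors, stood at 668 and 575 CPM, and NR5A1, a regulator of steroidogenic genes, at 155 and 162 CPM. Within cluster 7, CYP17A1 stood at 923 CPM in the 156 female cells with a TH UMI and at 1274 CPM in those without one. In supporting cluster 10 it stood at 729 CPM in the 43 female cells with a TH UMI and at 433 CPM in those without. The former were deeper, with a median of 13988 against 10502 UMIs. In the male library the levels with and without a TH UMI were 262 and 223 CPM in cluster 10. They were 585 and 565 CPM in male cluster 5, and 145 and 178 CPM in male cluster 17. No common direction of CYP17A1 with TH was seen. PNMT differed between the libraries in the TH cells outside, at 5.16 CPM (female) and 79.3 CPM (male). These sets differ in their clusters. Of the female cells 62 lay in cluster 7, whereas of the male cells 2 lay in cluster 7, 40 in cluster 5 and 9 in cluster 17. The PNMT levels are thus of unlike cells and are no comparison of the sexes.

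**Figure D4:**
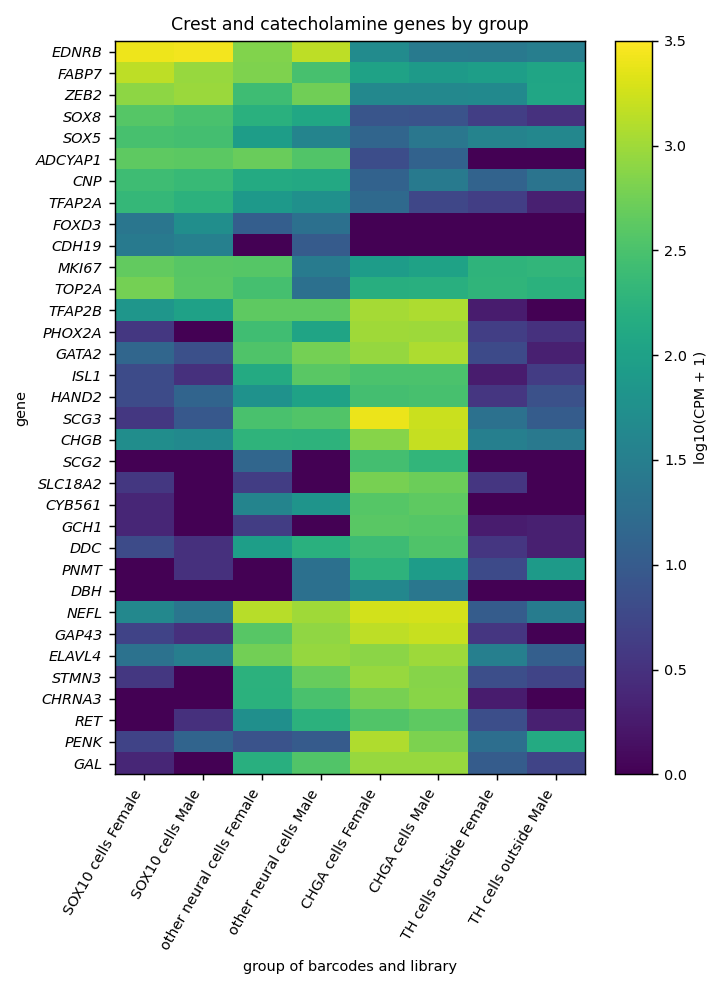
Level of genes of crest, catecholamine cells and neurons as log10(CPM + 1) in SOX10 cells and CHGA cells of the neural cluster, in the other neural cells and in the TH cells outside it, each by library. EDNRB and SOX8 stand high in SOX10 cells and SLC18A2, DDC and PHOX2A in CHGA cells, and the TH cells outside hold little SLC18A2, DDC or PHOX2A.

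STMN2 had its second level in interstitial cells. It stood at 19.7 CPM in the female cells of interstitial cluster 2 (15.9 to 24.2) and at 27.7 CPM in the male ones (24.3 to 31.5), at 22.2 and 26.4 CPM in cluster 4 and at 12.3 and 20.4 CPM in cluster 9. Endothelial cells were at 0.828 and 1.87 CPM. A UMI was found in 8.26% and 11.7% of the cells of cluster 2 and in 0.930% and 1.66% of endothelial cells, or 3.31% and 3.66% against 0% and 0.238% after thinning. Of the 205 cells with at least 3 STMN2 UMIs, 78 lay in the neural cluster and 127 outside, 37 of them in cluster 2 and 27 in cluster 4, where the highest cells held 35 and 37 UMIs. Per CHGA UMI there were 3.83 and 17.8 STMN2 UMIs in cluster 2, against 0.513 and 0.711 in near-empty barcodes. As a level, however, near-empty barcodes held STMN2 at 59.9 CPM (49.7 to 71.6) in the female and 26.4 CPM (19.8 to 34.5) in the male library, above the female interstitial clusters and within the range of the male ones. The part of free RNA in the interstitial level was not tested.

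**Figure D5:**
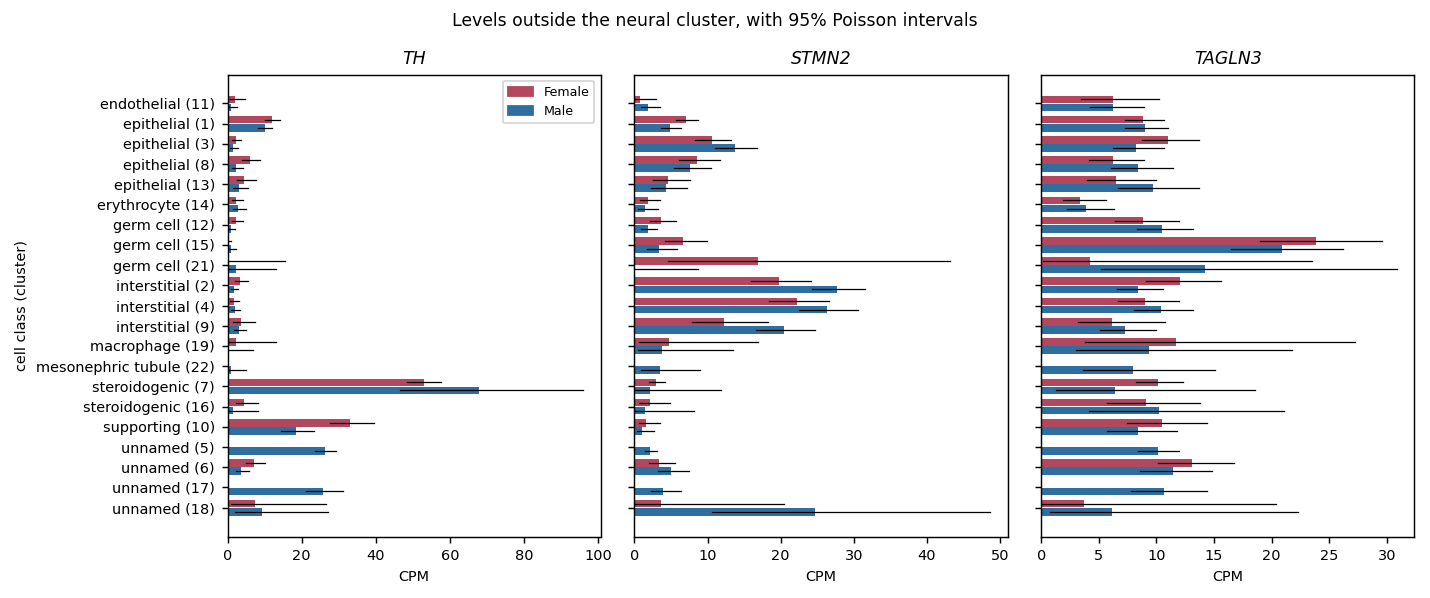
Level of TH, STMN2 and TAGLN3 in the clusters outside the neural cluster, in CPM from 0, by library, with 95% exact Poisson intervals for counting error. TH is highest in cluster 7, followed in the female library by cluster 10 and in the male library by clusters 5, 17 and 10, STMN2 in the interstitial clusters 2, 4 and 9, and TAGLN3 in germ cell cluster 15.

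Germ cells (499 female, 742 male) held little of the 5 genes. SOX10 stood there at 0.355 CPM (female) and 0.266 CPM (male), with 3 UMIs in each library, TH at 1.30 and 0.974 CPM, and STMN2 at 5.20 and 2.21 CPM. CHGA stood at 7.45 and 2.39 CPM, but 1 female cell held 33 of the 63 female UMIs. SOX10, TH, STMN2 and CHGA were below their level in near-empty barcodes in the germ cells of both libraries.

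TAGLN3 stood higher, at 14.9 CPM in female germ cells (12.4 to 17.7) and 14.0 CPM in male ones (11.9 to 16.4). Its near-empty level was above the germ cells in the female library (23.8 CPM) and below them in the male (9.78 CPM). Among germ cells the level of TAGLN3 was higher in cluster 15 than in cluster 12. Germ cell cluster 21 held 1 (female) and 6 (male) TAGLN3 UMIs and was not compared. Cluster 15 carried NANOG, a pluripotency factor of early germ cells, at 859 and 858 CPM against 22.6 and 24.2 CPM in cluster 12. In cluster 15 TAGLN3 stood at 23.9 CPM in the female library (19.0 to 29.6) and at 20.9 CPM in the male (16.5 to 26.2), against 8.85 and 10.5 CPM in cluster 12, with intervals that do not overlap in either library. Of the 28 cells with at least 3 TAGLN3 UMIs outside the neural cluster, 12 lay in cluster 15. Germ cells were deep, at 18812 and 15114 UMIs in cluster 15. A TAGLN3 UMI was found in 25.9% and 23.9% of its cells and in 6.05% and 6.65% of endothelial cells, but after thinning in 2.54% and 2.88% against 1.86% and 1.66%, a difference not detectable at that depth. In the female library the near-empty barcodes held TAGLN3 at 23.8 CPM, close to cluster 15, and in the male library at 9.78 CPM.

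In the named classes other than neural and germ cells, TAGLN3 lay between 3.39 CPM in female erythrocytes and 11.7 CPM in female macrophages. Epithelial, interstitial, steroidogenic and supporting cells stood between 8.37 and 10.5 CPM with overlapping intervals.

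The order of the levels can be read within each gene. For SOX10 and CHGA the neural cluster stood first and no order was read among the others, whose levels were below those of the near-empty barcodes in the sums outside the cluster. For TH the order was the neural cluster, cluster 7, then clusters 5, 17 and 10, then cluster 1 at 12 and 10.0 CPM. Near-empty barcodes held TH at 33.2 CPM (female) and 18.6 CPM (male). Cluster 10 stood at that level and cluster 1 below it in both libraries. The male intervals of clusters 5 and 17 overlapped that of the near-empty barcodes. Clusters 5 and 17 held 8 and 9 female cells, so cluster 10 was placed against them in the male library only, where it was the lowest of the 3. There the interval of cluster 17 overlapped those of both 5 and 10, and that of cluster 5 lay just above that of 10 (23.5 to 29.2 against 14.5 to 23.4). For STMN2 it was the neural cluster, then the interstitial clusters 2, 4 and 9, whose intervals overlap within each library except those of 4 and 9 in the female, then epithelial cluster 3 at 10.6 and 13.7 CPM, whose intervals overlap those of cluster 9 in both libraries. The interstitial clusters in the female library and cluster 3 in both stood below the near-empty level of STMN2 (59.9 CPM female, 26.4 CPM male). Clusters 18 and 21, with at most 8 STMN2 UMIs, were not placed.

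Genes with the most similar pattern were sought over 41 sums per cluster and library, by Pearson correlation of log2(CPM + 5), as a description with no p. The most similar to SOX10 were ENSTGUG00000021106 (0.993), SEZ6 (0.992) and ST18 (0.991). Those most similar to CHGA were SCRG1 (0.971), ST8SIA3 (0.969) and CYB561 (0.968). TH had lower values with RXRG (0.893), CACNG2 (0.887) and FSTL3 (0.885), STMN2 had SV2C (0.927) and ANGPTL1 (0.923), and TAGLN3 had ST18 (0.956), CNTN2 (0.953) and SEZ6 (0.953). All of these genes peaked in the neural cluster, and the 41 sums share the libraries and the depth of their clusters. Each sum of the neural cluster merges its SOX10 cells and its CHGA/TH cells, so a gene listed here need not share cells with its match. FSTL3, listed for TH, stood at 129 CPM in the neural SOX10 cells and had 0 UMIs in the neural CHGA/TH cells. Over the 39 sums outside the neural cluster, a measure added after the values were seen, TH was most like WNT6 (0.857) and PTHLH (0.826), which peaked in cluster 7, and STMN2 most like TCF21 (0.776), HAND2 (0.767) and COL12A1 (0.762), which peaked in interstitial clusters.

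The 2 classes inside the neural cluster also parted without the 5 genes. At a finer clustering resolution of 1.2 the cluster fell into 97 cells with 1 SOX10 cell and 85 CHGA/TH cells and 89 cells with 74 SOX10 cells and 0 CHGA/TH cells. In the male library clustered alone it fell into 40 cells with 32 SOX10 cells and 34 cells with 34 CHGA/TH cells. In the female library alone it stayed 1 cluster of 112 cells.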

How the data were processed

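Single-cell RNA of zebra finch gonads was counted by the authors with Cell Ranger 5.0.0 on the bTaeGut1_v1 genome, and the deposited values are raw UMI counts per gene and barcode, 0 other columns being left unused. The library of a barcode was taken from its suffix (-1 male, -2 female). The 5 genes and all gene lists were chosen with earlier results of these data known. Barcodes of at least 2000 UMIs were kept, no doublet caller was run, and cells were clustered with Seurat 5.3.0 (R 4.3.3) on 2000 variable genes, from which the 5 genes were removed, with 20 components, 20 neighbours and a resolution of 0.8. A cluster was named from at least 3 markers raised 1.5-fold. Intervals are 95% exact Poisson (CPM) or exact binomial (shares). Thinning drew 2000 UMIs per cell.

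Class sums were tested with edgeR 4.0.16 (filterByExpr, TMM, quasi-likelihood) and, as an alternative, with DESeq2 1.42.0. Replicates of the test were the female and the male library, so its p-values measure the spread between 1 pool of each sex, and sex is part of that spread. Both classes of a library come from 1 pool of embryos, which pairs them. Their deviations from the class means had a correlation of 0.204 over the 8933 genes. In data simulated for this comparison, edgeR recovered 187 of 200 genes changed by a log2 difference of 2 and called 12 unchanged genes of 8634. The simulated sums were unpaired, with a dispersion (spread beyond counting error) of 0.05 against 0.0296 fitted to the data. Far fewer genes were changed in them than were called here, so these rates may not hold for the data. Of each list the genes called were named, at most 8 by size of difference, with the 5 genes of largest difference per direction (at least 50 CPM in both libraries) and, for each of the 5 genes, the 3 most similar genes. Of genes that were not called, some were named after their values were seen. Some genes that these rules pick are not reported here. Of 20511 genes, 9155 have no symbol in the files. Alternatives changed the UMI minimum, class minimums, resolution, filter, scaling and libraries. Sequences and coordinates are not used here.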

Additional observations from a re-analysis of the deposited data

How the results depend on the processing

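With 1 library per sex, no sex difference could be tested. The count of cells with at least 2 SOX10 and at least 3 CHGA plus TH UMIs stayed 0 with 2 UMIs of each and with a minimum of 1000 UMIs. Thinning, a minimum of 5000 UMIs, leaving out the top 5% of cells and taking each library alone only lower counts or remove cells. Those settings could not raise a count of 0 and are no check of it. The count did not stay 0 at class minimums of 1 and 2 UMIs. There 65 of the 66 female cells with SOX10 and all 77 male ones had fewer than 2 CHGA plus TH UMIs. No call of the 58 named genes reversed. Of all genes, 1 called higher in SOX10 cells and 11 called higher in CHGA/TH cells had the opposite call within the neural cluster. The genes higher in SOX10 cells (799) and in CHGA/TH cells (1004) numbered 496 and 633 with DESeq2, 248 and 221 with class minimums of 1 and 2 UMIs, and 1336 and 1507 within the neural cluster with a replicate block. Without a filter on low counts 15090 genes were tested in place of 8933, of which 1002 were higher in SOX10 cells and 1632 in CHGA/TH cells. The cause of these changes was not tested. With a replicate block for the library over all clusters, the counts were 1180 and 1410. The block changed no call of the 58 named genes and added calls in 3 lists, giving 8 of 10 catecholamine genes, 9 of 11 granin and release genes and, in SOX10 cells, 3 of 8 receptors. Each list's median kept its side under library-size scaling. Of these genes, 14 were no longer called with minimums of 1 and 2 UMIs, 2 with DESeq2 (GFRA3 among them) and 1 without the top 5% of cells by UMIs (GFRA3). Leaving out a library leaves 1 sum per class and no test, and the log2 ratio then kept its direction in all 58.

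STMN2 in cluster 2 was found in 10.4% of cells, with 8.22% and 12.3% in the libraries taken alone (female, male). TAGLN3 in cluster 15 was found in 24.8%, 30.9% with a minimum of 5000 UMIs and 19.3% without the top 5% of cells. Of neural cells with SOX10, 2.33% had CHGA, and 0% at 2 UMIs of each. Of those with TH, 93.0% had CHGA, 88.9% among female and 100% among male cells alone. The share of SOX10 cells was 0.856% (female) and 0.814% (male) at the lower class minimums and 0.105% and 0.0634% after thinning. That of CHGA/TH cells was 3.06% and 1.83% at the lower minimums, 1.36% and 0.761% at 3 and 5 UMIs, 0.724% and 0.370% after thinning, and 0.698% and 0.349% with at least 3 CHGA UMIs in place of CHGA plus TH. Cluster 7 had no counterpart in the male library alone.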
